A study of Mus musculus with 24 samples.

Results

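The complement genes C3, C4b, C1ra, C1s1, C2, Cfb, Serping1, Cd55 and Cd59a were followed across 8 groups of cultured mouse ovarian cancer cells. They were taken by gene symbol, and all 9 were found among the 31062 features of the count tables. A total of 7 passed a filter on low counts (at least 10 counts in enough libraries, as edgeR's filterByExpr sets it) and were tested together with all 14622 genes that passed. Cfb and Cd59a did not pass and are described by their counts.

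Poly-A RNA was sequenced from ID8 p53-/- cells, an established ovarian cancer line of the mouse that lacks p53, in 3 libraries per group that the labels number as biological replicates. The groups were an Ifngr1-KO line, edited at the gene for the receptor chain that binds interferon-gamma (IFN-gamma), and a line labelled sgNTC, each grown in ultra-low attachment plates (ULA, where cells stay detached) or adherent, and each given IFN-gamma at 100 ng/ml or PBS. The p53-/- background is common to every group. Treatment began 24 hours after seeding and cells were harvested 48 hours after seeding. Each genotype is 1 line, so the edit and any other difference between the lines cannot be told apart, and dead cells were removed from ULA wells only, so culture and that step cannot be told apart either.

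Complement is a cascade of proteases and opsonins that marks cells for uptake or lysis. In the classical route C1q carries the proteases C1r and C1s, and C1s, once cut by C1r, cleaves C4 and C2 to form the enzyme that splits C3, and factor B takes the place of C2 in the alternative route. Serping1 (C1 inhibitor) blocks C1r and C1s, Cd55 takes apart the enzymes that split C3, and Cd59 stops the pore that kills the cell. Liver makes most plasma complement, but tumour cells, including ovarian ones, are known to make C3 themselves and to carry the membrane regulators.

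Libraries held 33494774 to 63154942 counts, in which each mate of a read pair adds 1. Of 10 epithelial and mesothelial markers, 7 exceeded 1 CPM (counts-per-million) in at least 1 group and summed to 1904 to 4610 CPM, led by Krt8, Krt18, Krt19, Wt1 and Msln, whereas Epcam had no count. Macrophage markers summed to 11.1 to 31.3 CPM, almost all from Cd68 and Cd14, with C1qa, C1qb and C1qc at 0, and lymphocyte markers stayed at or below 0.644 CPM. Ifngr1 itself had 13.3 to 17.0 CPM (median 14.6) in the 12 Ifngr1-KO libraries and 31.7 to 48.1 CPM (median 39.8) in the 12 sgNTC libraries. Replicate 3 of adherent Ifngr1-KO cells in PBS and replicate 2 of ULA Ifngr1-KO cells with IFN-gamma stood apart from their groups. Their pairs gave a chi-square per gene of 20.9 to 27.6, against 5.55 to 16.3 for the other 20 pairs. Leaving out either library changed no count of complement members called in the 7 comparisons that use one.

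In GRCm38, C3 lies on chromosome 17 (57203970 to 57228136, minus strand), as do C4b (34728380 to 34743882), Cfb (34856374 to 34862518) and C2 (34862604 to 34898265), all on the minus strand and the last 3 in the MHC class III region. C1ra (124512405 to 124523443, plus) and C1s1 (124530345 to 124542359, minus) are neighbours on chromosome 6. Cd55 is on chromosome 1 (130439027 to 130462744, minus), and Serping1 (84765387 to 84775444, minus) and Cd59a (104095801 to 104115354, plus) are on chromosome 2.

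RefSeq promoter windows of GRCm38.p6 were matched for 5 of the 9 genes (C3, C1ra, C1s1, Cd55 and Cd59a). The 250 bases before the RefSeq start are shown for C3, C1s1 and Cd55, the members with a window that were called higher in ULA in both lines and lower in Ifngr1-KO cells in both cultures, with CG pairs in capitals and the sequence 5′ to 3′ on the gene's strand. C1s1 has 2 overlapping windows, of which the one starting farther upstream is shown. The positions are chr17:57228137-57228386 for C3, chr6:124542360-124542609 for C1s1 and chr1:130462745-130462994 for Cd55, each on the minus strand.
C3: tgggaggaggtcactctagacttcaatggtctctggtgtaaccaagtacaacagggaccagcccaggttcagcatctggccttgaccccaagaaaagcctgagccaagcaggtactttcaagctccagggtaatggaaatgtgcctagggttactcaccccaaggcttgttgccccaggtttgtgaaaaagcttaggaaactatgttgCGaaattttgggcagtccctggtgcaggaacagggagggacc
C1s1: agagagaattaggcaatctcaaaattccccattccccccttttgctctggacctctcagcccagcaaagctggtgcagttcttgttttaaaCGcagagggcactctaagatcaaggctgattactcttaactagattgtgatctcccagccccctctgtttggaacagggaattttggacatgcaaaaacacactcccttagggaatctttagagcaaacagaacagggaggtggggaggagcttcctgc
Cd55: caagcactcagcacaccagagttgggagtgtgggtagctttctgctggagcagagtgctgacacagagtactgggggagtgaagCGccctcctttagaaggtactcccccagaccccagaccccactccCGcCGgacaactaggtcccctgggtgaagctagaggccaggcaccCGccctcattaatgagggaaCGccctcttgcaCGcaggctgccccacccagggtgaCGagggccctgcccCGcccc
C3 and C1s1 each have 1 CG pair and Cd55 has 8, against a median of 6 over all 32851 windows (quartiles 2 and 16). The core of the interferon-stimulated response element (GAAANNGAA), the NF-kB consensus and the CCAAT box were searched on both strands. None is found in the windows of C3, C1ra, C1s1 or Cd55, and 1 response element core lies 187 to 179 bases before the Cd59a start. The C1ra window (chr6:124512371-124512620) reaches into the counted gene, which starts at 124512405. The bases after that window matched no GENCODE transcript start of C1ra, so it may not be the promoter used. Over all windows the same letters occur in 7.13% for the response element core, 3.9% for the NF-kB consensus and 33.8% for the CCAAT box. A match is a description of letters, and its absence from these 250 bases says nothing about the factors.

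Detached culture went with higher expression of 6 of the 7 tested members. In ULA libraries C1ra, C1s1, C4b, C3, Serping1 and Cd55 were higher than in adherent libraries in both lines. Of the 7 tested members, 6 rose and none fell in Ifngr1-KO cells in PBS, where 29.6% of all tested genes rose, and 6 rose and none fell in sgNTC cells in PBS, where 32.5% of all tested genes rose. The median log2 fold change of the 7 was 3.03 in Ifngr1-KO cells (0.00 for all tested genes) and 2.46 in sgNTC cells (0.03 for all tested genes). Fitted to the PBS libraries of the Ifngr1-KO line alone, Serping1 fell under the filter on low counts and 5 members rose. Tests here and below are edgeR quasi-likelihood tests with Benjamini-Hochberg adjustment over the 14622 genes, a gene is called at an adjusted p under 0.05, and errors on log2 fold changes are standard errors. As these are bulk cultures, a change in the share of expressing cells and a change in RNA per cell cannot be told apart.

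Summed markers of other cell types were set beside these values. Macrophage markers (11 genes) summed to 21.0 to 31.3 CPM in ULA and 13.5 to 16.4 CPM in adherent Ifngr1-KO libraries, and to 12.8 to 16.5 CPM in ULA and 11.1 to 15.1 CPM in adherent sgNTC libraries, with 2 of the 11 above 1 CPM in a group. Fibroblast and pericyte markers (7 genes, 2 above 1 CPM) summed to 97.5 to 103 CPM in ULA and 33.3 to 44.3 CPM in adherent Ifngr1-KO libraries, and to 109 to 123 CPM in ULA and 88.4 to 108 CPM in adherent sgNTC libraries. Endothelial markers (4 genes, 1 above 1 CPM) summed to 0.993 to 2.48 CPM in ULA and 0.394 to 1.08 CPM in adherent Ifngr1-KO libraries, and to 2.87 to 5.46 CPM in ULA and 0.522 to 1.14 CPM in adherent sgNTC libraries. Hepatocyte markers (4 genes, with Ttr and Serpina1a at 0 and Apoa1 holding nearly all counts) summed to at most 1.64 CPM, in ULA sgNTC cells. Their part in the complement differences was not tested.

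C1s1 encodes the protease of C1 that cleaves C4 and C2. In ULA, C1s1 had 67.7, 58.6 and 54.0 CPM in Ifngr1-KO cells with IFN-gamma, 68.1, 65.5 and 57.8 CPM in Ifngr1-KO cells in PBS, 191, 148 and 191 CPM in sgNTC cells with IFN-gamma and 133, 131 and 123 CPM in sgNTC cells in PBS. Adherent, it had 7.89, 9.38 and 9.96 CPM in Ifngr1-KO cells with IFN-gamma, 7.10, 8.52 and 7.75 CPM in Ifngr1-KO cells in PBS, 28.2, 26.2 and 20.5 CPM in sgNTC cells with IFN-gamma and 19.5, 20.1 and 22.5 CPM in sgNTC cells in PBS. Every ULA library of a line lay above every adherent library of that line. In PBS the log2 fold change of ULA over adherent was 3.03 ± 0.13 in Ifngr1-KO cells (8.19-fold, adjusted p = 1.64e-15) and 2.65 ± 0.12 in sgNTC cells (6.24-fold, adjusted p = 3.18e-15). The counting was unstranded, and 18.4% of the C1s1 exon bases are shared with the antisense gene Gm16567. Gm16567 has no count in any library, but reads in shared bases may be lost to both genes, so the C1s1 level is uncertain.

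C1ra encodes C1r, the protease that activates C1s, and rose by less. In ULA it had 23.4, 18.6 and 14.1 CPM in Ifngr1-KO cells with IFN-gamma, 23.3, 18.6 and 17.8 CPM in Ifngr1-KO cells in PBS, 39.0, 35.8 and 31.9 CPM in sgNTC cells with IFN-gamma and 30.2, 29.3 and 24.99 CPM in sgNTC cells in PBS. Adherent, it had 8.06, 7.51 and 8.002 CPM in Ifngr1-KO cells with IFN-gamma, 8.01, 9.33 and 8.32 CPM in Ifngr1-KO cells in PBS, 10.2, 13.9 and 13.9 CPM in sgNTC cells with IFN-gamma and 11.5, 9.88 and 9.79 CPM in sgNTC cells in PBS. The groups again did not overlap between cultures of a line, at 2.33-fold in Ifngr1-KO cells (log2 1.22 ± 0.15, adjusted p = 2.59e-08) and 2.71-fold in sgNTC cells (log2 1.43 ± 0.14, adjusted p = 5.47e-10). C1ra shares 48% of its 50-base transcript words with its copy C1rb, and C1s1 shares 21.8% with C1s2, and reads that map to both copies were not counted, so the levels of these genes are uncertain.

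C4b, the mouse C4 that is split by C1s, had the steepest rise with detachment among the members with counts in every group. Its levels in ULA were 0.668, 0.682 and 0.536 CPM in Ifngr1-KO cells with IFN-gamma, 0.887, 0.919 and 0.509 CPM in Ifngr1-KO cells in PBS, 17.3, 11.9 and 15.9 CPM in sgNTC cells with IFN-gamma and 8.76, 8.79 and 8.87 CPM in sgNTC cells in PBS. Adherent levels were 0.244, 0.0751 and 0.196 CPM in Ifngr1-KO cells with IFN-gamma, 0.0522, 0 and 0.0514 CPM in Ifngr1-KO cells in PBS, 0.842, 0.456 and 0.361 CPM in sgNTC cells with IFN-gamma and 0.149, 0.282 and 0.307 CPM in sgNTC cells in PBS. Only ULA sgNTC cells exceeded 1 CPM. In PBS the ULA to adherent ratio was 22.4-fold in Ifngr1-KO cells (log2 4.43 ± 0.55, adjusted p = 1.33e-08) and 35.8-fold in sgNTC cells (log2 5.22 ± 0.31, adjusted p = 1.41e-16, rank 70 of 14622 genes from the top). C4b shares 34.6% of its 50-base words with C4a, which was not analysed here, so the C4b level is uncertain too.

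C3, on which all routes converge, had the highest level per length, as counted, of the soluble members in ULA PBS cells. It had 170, 170 and 139 CPM in ULA Ifngr1-KO cells with IFN-gamma, 182, 169 and 172 CPM in ULA Ifngr1-KO cells in PBS, 336, 269 and 286 CPM in ULA sgNTC cells with IFN-gamma and 338, 324 and 296 CPM in ULA sgNTC cells in PBS. Adherent cells had 20.2, 21.1 and 21.0 CPM in the Ifngr1-KO line with IFN-gamma, 19.6, 17.1 and 19.4 CPM in the Ifngr1-KO line in PBS, 41.8, 30.5 and 31.3 CPM in the sgNTC line with IFN-gamma and 41.3, 36.0 and 36.6 CPM in the sgNTC line in PBS. The 4 ULA groups thus stood above the 4 adherent groups with no overlap. In PBS C3 rose 9.33-fold in Ifngr1-KO cells (log2 3.22 ± 0.11, adjusted p = 1.9e-16, rank 312 of 14622) and 8.40-fold in sgNTC cells (log2 3.07 ± 0.11, adjusted p = 1.69e-16, rank 311).

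**Figure D1:**
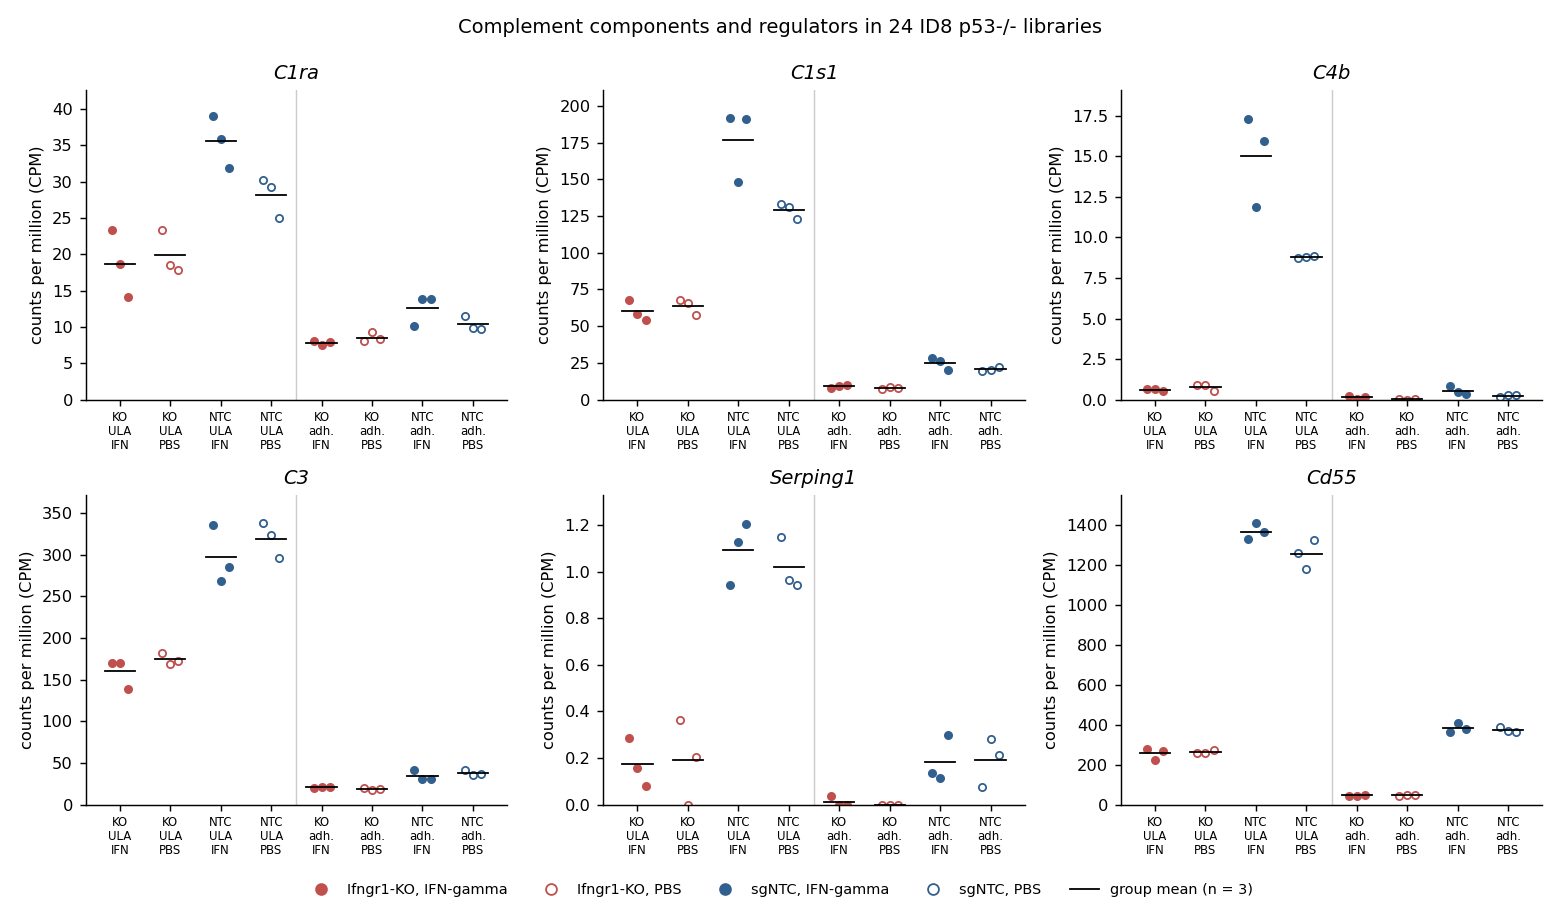
Each panel plots 1 gene on a linear axis in CPM, 1 point per library, filled for IFN-gamma and open for PBS, red for Ifngr1-KO and blue for sgNTC, with ULA groups left of the line and adherent groups right of it. Bars are means of 3 libraries. In all 6 panels the ULA sgNTC groups are highest, and for Cd55 the ULA Ifngr1-KO groups (225 to 281 CPM) lie below the adherent sgNTC groups (362 to 410 CPM).

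Among the members that are regulators, Cd55, the membrane factor that dissociates C3-splitting enzymes, had the highest level. In ULA it reached 281, 225 and 271 CPM in Ifngr1-KO cells with IFN-gamma, 258, 258 and 272 CPM in Ifngr1-KO cells in PBS, 1332, 1408 and 1363 CPM in sgNTC cells with IFN-gamma and 1260, 1182 and 1324 CPM in sgNTC cells in PBS. Adherent, it reached 45.8, 45.9 and 50.6 CPM in Ifngr1-KO cells with IFN-gamma, 45.4, 48.8 and 47.0 CPM in Ifngr1-KO cells in PBS, 362, 410 and 378 CPM in sgNTC cells with IFN-gamma and 391, 370 and 362 CPM in sgNTC cells in PBS. ULA libraries exceeded adherent ones within each line, by 5.58-fold in Ifngr1-KO cells in PBS (log2 2.48 ± 0.07, adjusted p = 7.57e-26) and 3.35-fold in sgNTC cells in PBS (log2 1.75 ± 0.06, adjusted p = 1.78e-22). The effect of ULA on Cd55 differed between the lines by a log2 of 0.73 ± 0.09 (Ifngr1-KO minus sgNTC, 95% interval 0.55 to 0.92, adjusted p = 9.11e-08). In the main fit Cd55 was the 1 member of 7 called in this interaction, in which 27.8% of all tested genes were called. C1s1 (log2 0.38 ± 0.17, adjusted p = 0.105 by edgeR) depended on the setting. It was called there by DESeq2 (adjusted p = 0.0411), by edgeR without a filter on low counts (adjusted p = 0.00324) and by edgeR on the compared groups alone (adjusted p = 0.00741).

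Serping1, the inhibitor of C1r and C1s, was scarce. It had 0.286, 0.157 and 0.0794 CPM in ULA Ifngr1-KO cells with IFN-gamma, 0.365, 0 and 0.204 CPM in ULA Ifngr1-KO cells in PBS, 0.941, 1.13 and 1.21 CPM in ULA sgNTC cells with IFN-gamma and 1.15, 0.963 and 0.943 CPM in ULA sgNTC cells in PBS. Adherent Ifngr1-KO cells had 0.0376, 0 and 0 CPM with IFN-gamma and no count in PBS, and adherent sgNTC cells had 0.137, 0.114 and 0.301 CPM with IFN-gamma and 0.0745, 0.282 and 0.215 CPM in PBS. Only the ULA sgNTC groups, with 38 to 76 counts per library, stood clear of the rest. In PBS Serping1 was 5.35-fold higher in ULA than in adherent sgNTC cells (log2 2.46 ± 0.72, adjusted p = 0.00323). In the Ifngr1-KO line it passed the test (adjusted p = 0.00106), at least 7.67-fold higher in ULA against a floor of 3 counts over the adherent group, although 1 ULA library was itself at 0. Its 22 ULA counts came from replicate 1 (14) and replicate 3 (8), and the bound was 4.12-fold without replicate 1 and 11.5-fold without replicate 2, with the call kept in both cases (adjusted p = 0.0106 without replicate 1 and 9.02e-05 without replicate 2). Because mates are counted separately, 3 counts can come from fewer read pairs, and floors cover counting error only.

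The remaining members were at the edge of detection. C2, the protease that pairs with C4, had 0 to 12 counts per library (0 to 0.310 CPM, 2 libraries at 0) and did not pass the test for ULA in Ifngr1-KO cells (log2 -0.27 ± 0.86, adjusted p = 0.805) or in sgNTC cells (log2 0.08 ± 0.87, adjusted p = 0.942). Cfb, encoding factor B, had 36 counts in all, 0 to 7 per library and none in 9 libraries. Both genes share exon bases with the same-strand gene Gm20547, 46.9% for C2 (with Zbtb12) and 79.5% for Cfb. Gm20547 likewise has no count in any library, and the low counts of C2 and Cfb are uncertain. Cd59a, a blocker of the lytic pore, had 7 counts in 3 libraries and none in the other 21, and 0 counts allow up to 0.0475 to 0.0896 CPM per library.

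Per transcript length, Cd55 ranked first in each of the 8 groups. In PBS, Cd55 averaged 204 TPM (transcripts-per-million, a level per length) in ULA Ifngr1-KO cells, 982 TPM in ULA sgNTC cells, 36.9 TPM in adherent Ifngr1-KO cells and 284 TPM in adherent sgNTC cells. C3 averaged 128 TPM in ULA Ifngr1-KO, 236 TPM in ULA sgNTC, 13.8 TPM in adherent Ifngr1-KO and 27.2 TPM in adherent sgNTC cells, and C1s1 averaged 76.9 TPM in ULA Ifngr1-KO, 157 TPM in ULA sgNTC, 9.46 TPM in adherent Ifngr1-KO and 24.4 TPM in adherent sgNTC cells. As counted, C1ra was below C1s1 in ULA, at 25.2 TPM in Ifngr1-KO and 35.9 TPM in sgNTC cells. It was closer to C1s1 in adherent cells, at 10.9 TPM in Ifngr1-KO and 12.9 TPM in sgNTC cells. C1ra shares 48% of its 50-base transcript words with C1rb, and C1s1 shares 21.8% with C1s2. Reads that map to both copies were not counted, so the ratio of C1s1 to C1ra is uncertain. C4b averaged 0.511 TPM in ULA Ifngr1-KO, 5.87 TPM in ULA sgNTC, 0.0228 TPM in adherent Ifngr1-KO and 0.159 TPM in adherent sgNTC cells. In ULA PBS cells of both lines the order of these averages, as counted, was Cd55, C3, C1s1, C1ra and C4b. In adherent Ifngr1-KO cells C1ra and C1s1 overlapped.

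**Figure D2:**
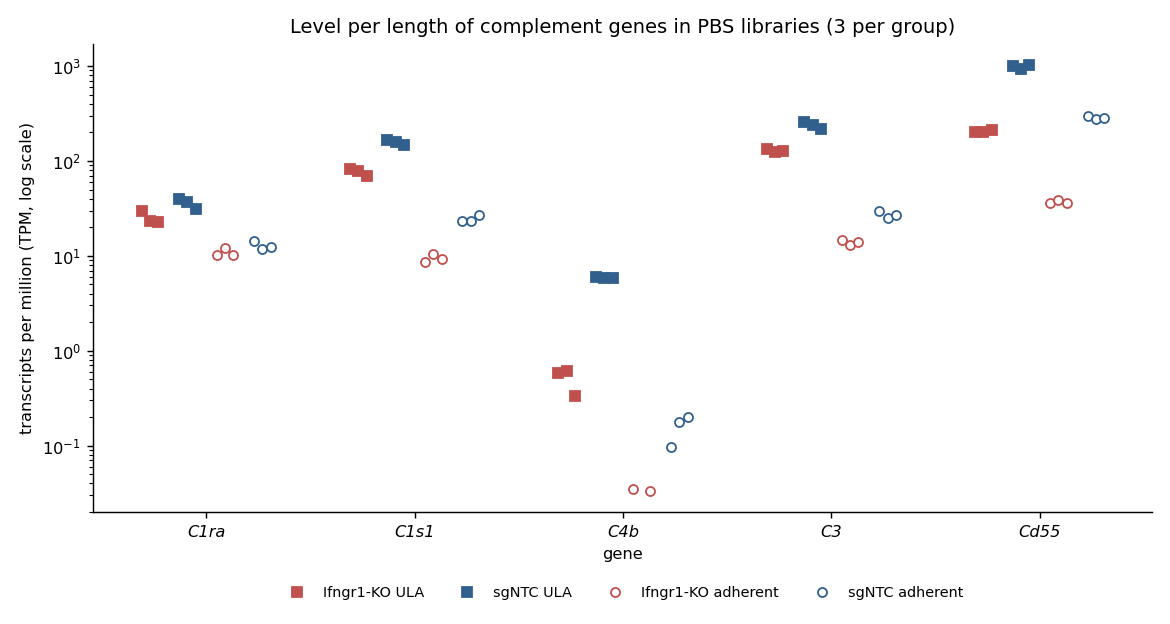
Levels per transcript length in PBS libraries are plotted on a log axis in TPM, 1 point per library and 3 per group, squares for ULA and open circles for adherent, red for Ifngr1-KO and blue for sgNTC. Cd55 is highest in each group and C4b lowest of the 5 genes shown, and the adherent Ifngr1-KO library with no C4b count is not drawn.

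C3, C4b, C1s1, Cd55 and Serping1 were lower in the Ifngr1-KO line than in the sgNTC line in both cultures. In ULA PBS cells 6 of the 7 tested members were lower in Ifngr1-KO and none higher, where 25.6% of all tested genes were lower. In adherent PBS cells 5 of the 7 were lower and none higher, where 23.9% of all tested genes were lower. The 5 include C4b and Serping1, which fall under the filter when only the groups compared are fitted, leaving 3 members called. The median log2 fold change of the 7 tested members was -1.02 in ULA (-0.02 for all tested genes) and -1.40 in adherent cells (-0.01 for all tested genes).

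Cd55 and C4b were far lower in the Ifngr1-KO line. Cd55 in Ifngr1-KO cells was 20.9% of its sgNTC level in ULA (log2 -2.26 ± 0.06, adjusted p = 1.77e-24) and 12.6% in adherent cells (log2 -2.99 ± 0.07, adjusted p = 4.85e-27). C4b was 8.77% of its sgNTC level in ULA (log2 -3.51 ± 0.26, adjusted p = 2.92e-13) and 14% in adherent cells (log2 -2.72 ± 0.70, adjusted p = 0.00172). The adherent value rests on 4 counts over the 3 Ifngr1-KO libraries and was -2.09 without replicate 2, which had none. For neither gene did any Ifngr1-KO library in PBS reach the lowest sgNTC library of the same culture.

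C3 and C1s1 differed less. C3 in Ifngr1-KO cells stood at 54.7% in ULA (log2 -0.87 ± 0.10, adjusted p = 2.39e-07) and 49.3% in adherent cells (log2 -1.03 ± 0.11, adjusted p = 1.89e-07). C1s1 stood at 49.4% in ULA (log2 -1.02 ± 0.11, adjusted p = 5.76e-08) and 37.7% in adherent cells (log2 -1.40 ± 0.13, adjusted p = 1.07e-08). C1ra was lower in ULA (70.7%, log2 -0.50 ± 0.14, adjusted p = 0.00303) but did not pass the test in adherent cells (82.3%, log2 -0.29 ± 0.15, adjusted p = 0.128). Serping1 was 18.6% of its sgNTC level in ULA (log2 -2.41 ± 0.71, adjusted p = 0.00502) and, against the floor of 3 counts over the group, at least 7.69-fold lower in adherent Ifngr1-KO cells, which had no count against 21 in sgNTC cells (adjusted p = 0.00209). The ULA value of Serping1 was -3.25 without replicate 1 and -1.80 without replicate 2 of the Ifngr1-KO libraries.

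The summed fibroblast and pericyte markers were lower in Ifngr1-KO than in sgNTC libraries, with no overlap within a culture. They had 33.3 to 44.3 against 88.4 to 108 CPM in adherent and 97.5 to 103 against 109 to 123 CPM in ULA libraries. Of these 7 markers only Dcn and Col1a1 exceeded 1 CPM in a group, Lum had no count, and Pdgfrb stayed at or below 0.103 CPM. In ULA, endothelial markers were also lower in Ifngr1-KO libraries (0.993 to 2.48 against 2.87 to 5.46 CPM). Macrophage markers (21.0 to 31.3 against 12.8 to 16.5 CPM) and epithelial and mesothelial markers (4248 to 4610 against 2574 to 2857 CPM) were higher there. In adherent cells the macrophage and the epithelial and mesothelial sums overlapped between the lines. The part of these markers in the complement differences was not tested.

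**Figure D3:**
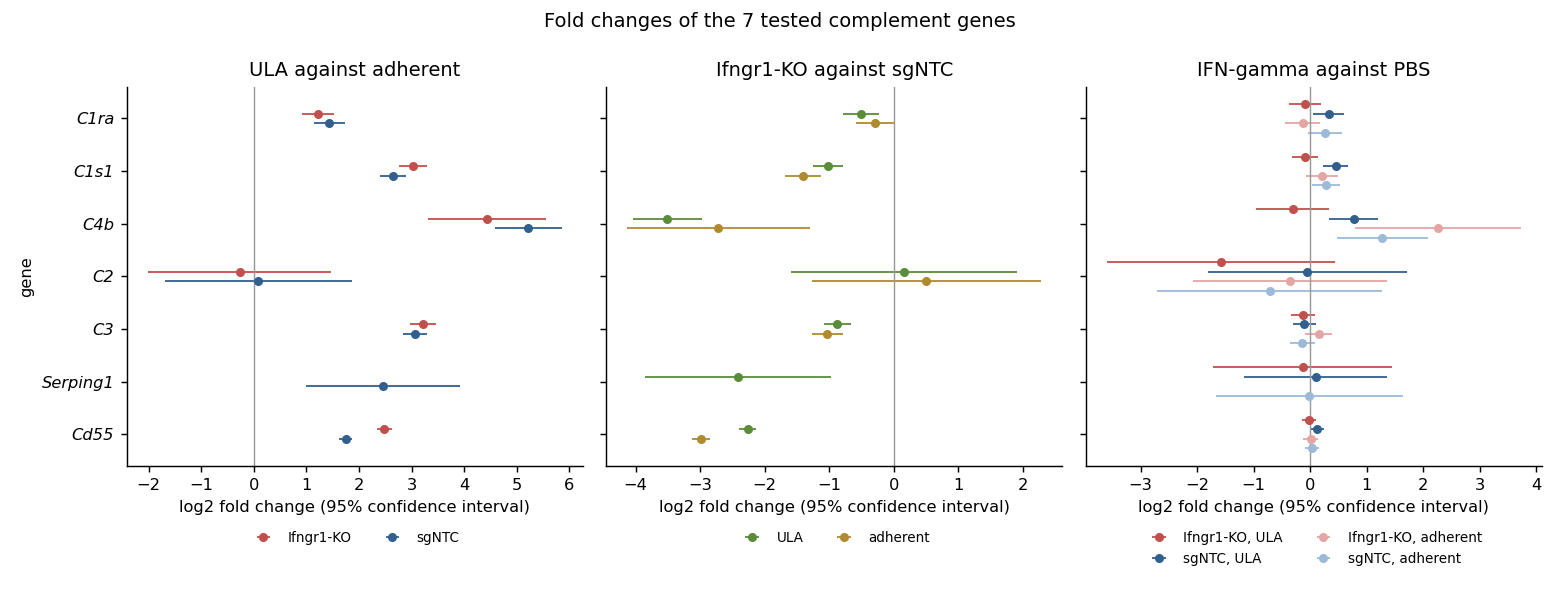
Log2 fold changes of the 7 tested genes (points) with 95% intervals (lines) are plotted for ULA over adherent in PBS, Ifngr1-KO over sgNTC in PBS and IFN-gamma over PBS. All members but C2 lie right of 0 in the left panel and left of 0 in the middle one, and in the right panel C3 and Cd55 lie close to 0 while the low-count genes have wide intervals. Comparisons of Serping1 in which a group had no count are not drawn.

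With IFN-gamma, C1s1 and C4b rose in ULA sgNTC cells. There 2 of the 7 tested members rose and none fell, where 1.31% of all tested genes rose. C1s1 averaged 177 ± 24.8 CPM with IFN-gamma and 129 ± 5.32 CPM in PBS (SD, n = 3 each), a log2 fold change of 0.46 ± 0.11 (adjusted p = 0.0248 in the edgeR fit). C4b averaged 15.0 ± 2.82 CPM with IFN-gamma and 8.80 ± 0.0593 CPM in PBS (SD, n = 3 each), a log2 fold change of 0.77 ± 0.21 (adjusted p = 0.0477 in the edgeR fit). In both genes each of the 3 IFN-gamma libraries lay above the 3 PBS libraries. Both calls were close to the threshold. C4b was lost whichever of the 6 libraries was left out (adjusted p = 0.0527 to 0.216), and C1s1 was lost without any of them except replicate 2 with IFN-gamma (adjusted p = 0.0518 to 0.129). A replicate block also ended the C4b call (adjusted p = 0.0523), and fitting only the 2 groups compared ended the C1s1 call (adjusted p = 0.0518).

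The other members did not pass in these cells. C1ra averaged 35.6 ± 3.55 CPM with IFN-gamma and 28.2 ± 2.78 CPM in PBS (log2 0.33 ± 0.13, adjusted p = 0.244 by edgeR), and Cd55 1367 ± 38.2 CPM with IFN-gamma and 1255 ± 70.7 CPM in PBS (log2 0.12 ± 0.06, adjusted p = 0.391 by edgeR). C3 averaged 297 ± 35.0 CPM with IFN-gamma and 319 ± 21.4 CPM in PBS, and its log2 fold change of -0.10 ± 0.10 has a 95% interval of -0.31 to 0.10 (adjusted p = 0.756 by edgeR).

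In adherent sgNTC cells edgeR and DESeq2 called none of the 7 members for IFN-gamma, where edgeR called 0.315% of all tested genes. An unadjusted edgeR p under 0.05 was found for 2 members and for 1071 of all 14622 tested genes. The C4b log2 fold change was 1.28 ± 0.40 (adjusted p = 0.275) and that of C1s1 0.28 ± 0.12 (adjusted p = 0.631), while C3 had -0.14 ± 0.11 (adjusted p = 0.861) and Cd55 0.03 ± 0.06 (adjusted p = 0.96). In Ifngr1-KO cells edgeR and DESeq2 called no member in either culture, with 0 unadjusted p-values under 0.05 in ULA and 1 in adherent cells. Over all tested genes edgeR called 0% in ULA Ifngr1-KO cells (1103 genes had an unadjusted p under 0.05 and DESeq2 called 1). In adherent Ifngr1-KO cells it called 0.00684% (1215 genes had an unadjusted p under 0.05 and DESeq2 called 25). The 1 unadjusted value belonged to C4b in adherent cells (log2 2.27 ± 0.72, adjusted p = 0.414), from 13, 4 and 8 counts with IFN-gamma against 2, 0 and 2 in PBS.

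Differences between responses were tested as interactions. For the difference of the sgNTC response between ULA and adherent cells, edgeR and DESeq2 called no member, where edgeR called 0.0479% of all tested genes. No member had an unadjusted p under 0.05, against 781 of all genes. For the difference of the response between Ifngr1-KO and sgNTC cells, edgeR called no member in adherent cells (none by DESeq2, 0.13% of all genes called). There no member had an unadjusted p under 0.05, against 1630 of all genes. In ULA edgeR called none either (1 by DESeq2, 1.33% of all genes called), and 3 members had an unadjusted p under 0.05, against 2092 of all genes. The ULA values (Ifngr1-KO minus sgNTC) were -0.54 ± 0.15 for C1s1 (95% interval -0.86 to -0.22, adjusted p = 0.0811), -1.08 ± 0.38 for C4b (adjusted p = 0.154) and -0.43 ± 0.19 for C1ra (adjusted p = 0.307). C1s1 was called in this comparison by DESeq2 (adjusted p = 0.0153), by edgeR without a filter on low counts (adjusted p = 4.5e-05), and by edgeR without ULA Ifngr1-KO replicate 1 with IFN-gamma (adjusted p = 0.0449) or without ULA sgNTC replicate 2 with IFN-gamma (adjusted p = 0.0189). Whether the C1s1 response in ULA differed between the lines thus depended on the setting.

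A list of 47 other complement genes was followed, of which 46 were matched and 18 tested. Libraries held no count at all for 8 of them (C1qa, C1qb, C1qc, Mbl1, Fcnb, C6, C7 and C8a), which allows up to 0.00292 CPM over the 24 libraries. The cells thus had counts for the C1 proteases without any for the C1q chains that carry them. None of the 18 was called for IFN-gamma in any line and culture by edgeR or DESeq2. Few genes were called at all by edgeR, with 0 of 14622 in ULA Ifngr1-KO, 300 in ULA sgNTC, 1 in adherent Ifngr1-KO and 46 in adherent sgNTC cells. An unadjusted edgeR p under 0.05 was found for 3 of the 18 in ULA Ifngr1-KO cells (1103 of all 14622 genes) and 0 in ULA sgNTC cells (1924 of all genes). In adherent cells it was found for 3 in the Ifngr1-KO line (1215 of all genes) and 2 in the sgNTC line (1071 of all genes).

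In ULA against adherent PBS cells, 8 of the 18 rose and 3 fell in Ifngr1-KO cells (29.6% of all tested genes rose and 31.1% fell), and 8 rose and 4 fell in sgNTC cells (32.5% of all tested genes rose and 32.1% fell). Clu, encoding clusterin, a fluid-phase inhibitor of the lytic pore, averaged 1348 ± 18.7 CPM in ULA and 195 ± 5.74 CPM in adherent Ifngr1-KO cells, and 1619 ± 53.5 CPM in ULA and 189 ± 1.51 CPM in adherent sgNTC cells. Masp1, a protease of the lectin route, averaged 205 ± 8.49 CPM in ULA and 53.5 ± 6.25 CPM in adherent Ifngr1-KO cells, and 164 ± 6.17 CPM in ULA and 25.9 ± 2.35 CPM in adherent sgNTC cells. Both rose in both lines, as did the C1r-like gene C1rl (4.47-fold in Ifngr1-KO, 6.43-fold in sgNTC) and the C1s copy C1s2 (9.26-fold in Ifngr1-KO, 7.06-fold in sgNTC).

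Not every regulator rose. Cr1l, which encodes Crry, the main rodent membrane inhibitor of C3 activation, fell to 54.7 ± 3.05 CPM in ULA against 83.6 ± 1.46 CPM in adherent Ifngr1-KO cells (log2 -0.61 ± 0.06, adjusted p = 2.88e-11). In sgNTC cells it fell to 64.7 ± 0.588 CPM in ULA against 116 ± 4.11 CPM in adherent cells (log2 -0.84 ± 0.06, adjusted p = 4.7e-15). C1qbp, a mostly mitochondrial protein that can bind C1q, also fell in both lines (to 58.4% of the adherent level in Ifngr1-KO and 49.6% in sgNTC cells). The membrane regulators Cd55 and Cr1l thus changed in opposite directions with detachment. Cfp, encoding properdin, which stabilises the C3-splitting enzyme of the alternative route, fell in sgNTC cells, to 3.19 ± 0.343 CPM in ULA against 5.36 ± 0.699 CPM in adherent cells (SD, n = 3 each; edgeR adjusted p = 0.00344). Cd46, a cofactor for the cleavage of C3b, fell in Ifngr1-KO cells, to 1.57 ± 0.110 CPM in ULA against 4.44 ± 0.666 CPM in adherent cells.

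Between the lines in PBS, 8 of the 18 were lower and 4 higher in Ifngr1-KO than in sgNTC cells in ULA (25.6% of all tested genes were lower and 24.5% higher), and 4 were lower and 2 higher in adherent cells (23.9% were lower and 20.1% higher). Cfi, encoding factor I, the protease that cleaves C3b and C4b with the help of cofactors, was detected mainly in ULA sgNTC cells, with 0.179 ± 0.132 CPM in Ifngr1-KO and 3.18 ± 0.323 CPM in sgNTC cells in ULA (log2 -4.12 ± 0.52, adjusted p = 4.12e-08, and -4.87 without replicate 2 of the Ifngr1-KO libraries). Masp1 went the other way, higher in Ifngr1-KO cells in ULA (1.25-fold) and in adherent cells (2.07-fold). Hc, encoding C5, was 5.43-fold higher in Ifngr1-KO than in sgNTC cells in ULA, at 1.92 ± 0.551 CPM and 0.354 ± 0.323 CPM (log2 2.48 ± 0.57, and 3.52 without replicate 3 of the sgNTC libraries).

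**Figure D4:**
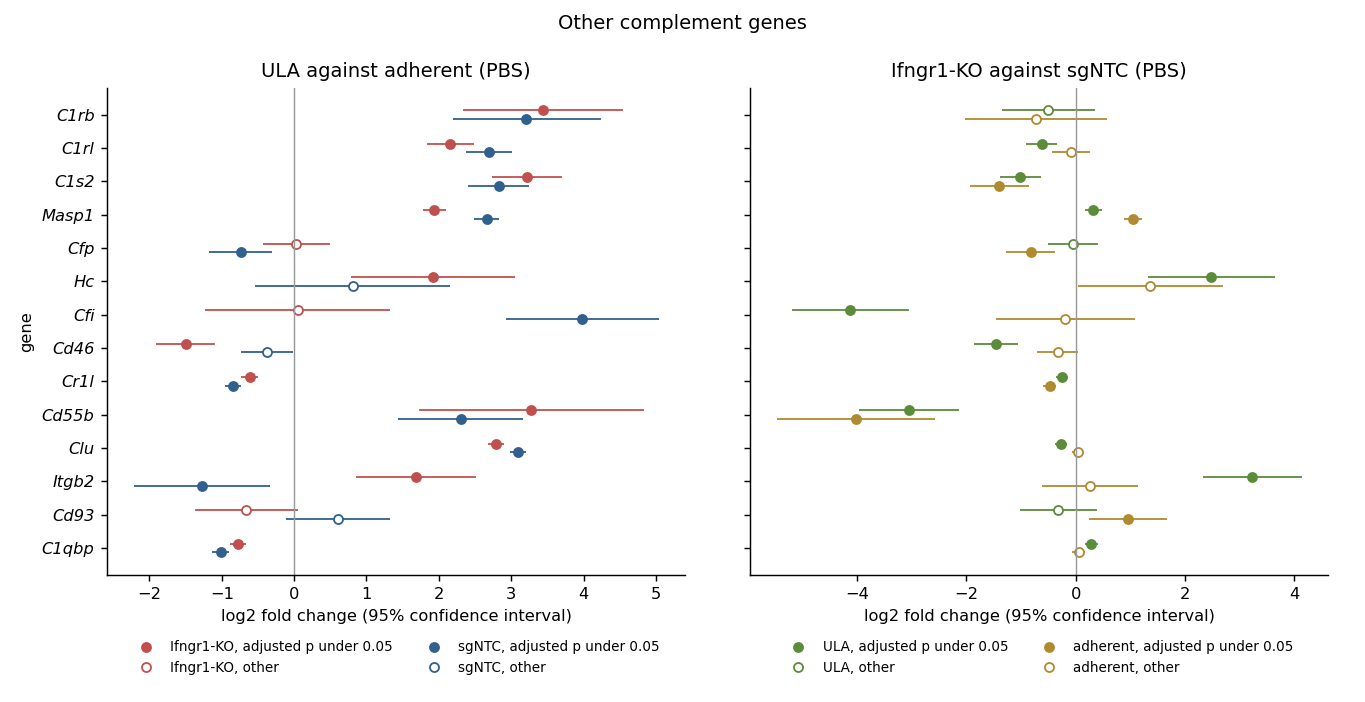
Log2 fold changes with 95% intervals are plotted for the 14 other complement genes that were called in a comparison and averaged at least 1 CPM in a compared group, filled where the adjusted p was under 0.05 and open otherwise. Clu, Masp1, C1rl, C1s2, C1rb and Cd55b lie right of 0 and Cr1l and C1qbp left of 0 in both lines on the left, and Cfi in ULA cells has the lowest value on the right (-4.12).

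The members with at least 1 CPM in a group varied together over the 24 libraries, with Pearson correlations of log2(CPM + 1) between pairs of 0.782 (C3 and Serping1) to 0.976 (C3 and C1s1). These libraries share the 2 cultures and 2 lines, so the values describe a common ordering of groups. Among 10055 candidate genes, St3gal5, Tgm5 and Gpc4 were closest to C3 (0.994 to 0.995), Man2a1, Sema3d and Oplah to C1s1 (0.989 to 0.992), and Ddx5, Tnr and Pde5a to C1ra (0.972 to 0.981). Crtc1, Fads6 and Oas2 were closest to C4b (0.973 to 0.981), Plxna4, Il1r1 and Gata6 to Cd55 (0.99 to 0.997), and Coq8a, Kng1 and Selenbp2 to Serping1 (0.963 to 0.966).

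Groups were not ordered alike in all members. For C3, C1s1, C1ra and C4b every ULA group averaged above every adherent group, and sgNTC was above Ifngr1-KO within each culture. In Cd55 the line outweighed the culture, as ULA Ifngr1-KO cells averaged 259 CPM with IFN-gamma and 263 CPM in PBS, below the adherent sgNTC cells at 383 CPM with IFN-gamma and 374 CPM in PBS. For C3, C1s1, C1ra and Cd55 the neighbours in this order that overlapped were the IFN-gamma and PBS groups of the same line and culture. For C4b, ULA Ifngr1-KO cells (0.629 CPM) also overlapped adherent sgNTC cells (0.553 CPM), both with IFN-gamma, and adherent Ifngr1-KO cells with IFN-gamma (0.172 CPM) overlapped adherent sgNTC cells in PBS (0.246 CPM). For Serping1 the ULA Ifngr1-KO groups (0.174 CPM with IFN-gamma, 0.190 CPM in PBS) overlapped the adherent sgNTC groups (0.184 CPM with IFN-gamma, 0.190 CPM in PBS), and for C2 every pair of neighbours overlapped.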

How the data were processed

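The deposited files hold raw counts per gene for each library. Exons were counted unstranded with featureCounts v2.1.1, per the file headers, with multi-mapping reads left out and both mates of a pair counted. Trimmomatic, HISAT2 with GRCm38 (mm10), SAMtools and Subread 2.1.1 are named in the submitters' processing notes. Members were matched through Ensembl identifiers in the GENCODE annotation of GRCm38. Genes passed filterByExpr (minimum count 10, the 8 groups as design), and edgeR 4.0.16 in R 4.3.3 fitted all 24 libraries with a mean per group, TMM scaling (factors of 0.958 to 1.054) and robust quasi-likelihood dispersions, leaving 16 residual degrees of freedom. Two-sided tests were made for 12 comparisons, each adjusted over 14622 genes. CPM were scaled by TMM-adjusted totals, and TPM by the exon lengths in the files. The procedure was tested on simulated counts.

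The members and gene lists were chosen with earlier results of these data known. Named are all 9 members, other complement genes called in a direct comparison and averaging 1 CPM or more in a compared group, and for each member the 3 genes closest in log2(CPM + 1) among those averaging 5 CPM or more in a group. Alternatives were RLE size factors, DESeq2 1.42.0, no filter, fits to the compared groups alone, a replicate block and leaving out each library. Of the gene list and motifs, 1 gene and 1 motif are not reported here. Sequences are from RefSeq, GRCm38.p6.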

Additional observations from a re-analysis of the deposited data

Results flagged for a closer look

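In the main fit, the effect of ULA culture in PBS differed between the Ifngr1-KO and sgNTC lines for Cd55, 1 of 7 tested members. It also differed for 7 of the 18 other complement genes tested. The test was of the difference itself (edgeR, Ifngr1-KO minus sgNTC on the log2 scale), and it called 27.8% of all tested genes. Cd55 (0.73) rose by more in the Ifngr1-KO line, and Itgb2 (2.97) rose there and fell in the sgNTC line. Cr1l (0.23) and C1qbp (0.24) fell by less in the Ifngr1-KO line. Masp1 (-0.72) and Clu (-0.31) rose by less in the Ifngr1-KO line. Cfi (-3.94) rose in sgNTC cells without passing the test in Ifngr1-KO cells, and Cd46 (-1.13) fell in Ifngr1-KO cells without passing it in sgNTC cells. The calls of Cr1l and C1qbp were lost when some single libraries were left out (adjusted p = 0.0529 to 0.0714 for Cr1l and 0.0533 to 0.0581 for C1qbp). The Itgb2 fall in the sgNTC line was lost without adherent sgNTC replicate 1 (adjusted p = 0.0993) and without ULA sgNTC replicate 3 (adjusted p = 0.0949), and its difference between the lines was 3.69 without ULA sgNTC replicate 1. The Cfi difference was -4.70 without ULA Ifngr1-KO replicate 2.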

How the results depend on the processing

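Of 26 calls of members in the comparisons, 21 held under every alternative, 2 were lost under at least 1, and 3 had no value in the fit to the compared groups, where the gene fell under the filter. No called value of a member reversed. Of 46 calls of the other complement genes named, 41 held, 4 were lost and 1 (Cd55b, ULA against adherent in Ifngr1-KO cells) had no value in that fit.

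With only the compared groups fitted, 3 members instead of 5 were called between the lines in adherent cells, as C4b and Serping1 then fell under the filter, and 5 instead of 6 were called for ULA in Ifngr1-KO cells, as Serping1 did. That fit called 1 member instead of 2 for IFN-gamma in ULA sgNTC cells, 2 instead of 1 for the interaction of line and culture, and 101, 0, 1 and 1 genes for IFN-gamma in adherent sgNTC, adherent Ifngr1-KO and ULA Ifngr1-KO cells and for its ULA minus adherent difference, instead of 46, 1, 0 and 7. Without a filter, 1 member each was called for IFN-gamma in adherent sgNTC cells and for the line difference of the response in ULA, and 2 for the line and culture interaction. Genes called without a filter were 175 and 652 (adherent and ULA sgNTC), 31 and 33 (adherent and ULA Ifngr1-KO), 63 (ULA minus adherent), and 180 and 524 (Ifngr1-KO minus sgNTC, adherent and ULA), instead of 46, 300, 1, 0, 7, 19 and 195. DESeq2 called 83, 482, 25 and 1 genes for the same 4 responses and 96 and 467 for the 2 line differences, with 1 member for the line difference in ULA (C1s1) and 2 for line and culture. The cause of these shifts was not tested.

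Deviations of same-number samples in different groups correlated at -0.15 to 0.24, with 7 of 84 pairs over 0.1. Different-number pairs gave -0.20 to 0.17, with 8 of 168 over 0.1. These values do not settle whether replicate numbers pair the samples, and a replicate block was fitted as an alternative. With a replicate block, C4b lost its IFN-gamma call in ULA sgNTC cells (adjusted p = 0.0523), leaving 1 member called there.

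Leaving out single libraries gave 0 to 1 members and 127 to 346 genes for IFN-gamma in ULA sgNTC cells, 25 to 40 genes in adherent sgNTC, 0 to 3 in adherent Ifngr1-KO and 0 to 5 in ULA Ifngr1-KO cells. It gave 1 to 7 genes for the ULA minus adherent difference, 2 to 22 for the line difference in adherent cells, and 0 to 1 members and 75 to 280 genes for that in ULA. Depth limits C2, Cfb, Cd59a and Serping1, whose counts stay at or below 76 per library.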
